A study of Mus musculus with 2 samples.

Results

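Cyclic nucleotide phosphodiesterases hydrolyse cAMP and cGMP, and they are the only enzymes known to end these signals inside the cell. The measurements described here are the mRNA levels, in whole heart, of Pde1a, Pde1c, Pde2a, Pde3a, Pde3b, Pde4a, Pde4b, Pde4d, Pde5a and Pde7a. These 10 genes of the superfamily were chosen by name, with earlier results of these data known. They are 10 of the 22882 gene symbols in the files, and each stands on a single row. A list of 14 further genes of the superfamily served for comparison.

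RNA was prepared from hearts of 23-day-old C57BL6/J mice of both sexes, without treatment. The control group was Med1fl/fl, in which both Med1 alleles carry loxP sites. The csMed1-/- group carried the same floxed alleles and in addition a Cre transgene driven by the α-myosin heavy chain promoter, which deletes part of Med1 in cardiomyocytes and leaves the gene in the other cells of the heart. RNA of 5 hearts was pooled within each genotype and each pool gave 1 library. Without replicates no value below carries an error, and the genotypes were compared by size alone, with no test. Levels are FPKM, fragments per kilobase of transcript scaled to the size of the library. How that size was set for the deposited values is not stated. Changes are the plain ratio of csMed1-/- to Med1fl/fl FPKM or its log2.

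Cyclic nucleotide signals in the heart are kept local. Adrenergic receptors and adenylyl cyclases raise cAMP, which acts through protein kinase A (PKA) on calcium channels, the ryanodine receptor, phospholamban and troponin I, while nitric oxide and natriuretic peptides raise cGMP through guanylyl cyclases. The phosphodiesterases differ in which nucleotide they break down and in what controls them. PDE1 enzymes are activated by calcium and calmodulin and take both nucleotides, PDE2 is stimulated by cGMP, PDE3 is inhibited by cGMP, PDE4, PDE7 and PDE8 are specific for cAMP, and PDE5 and PDE9 are specific for cGMP.

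Of the 10 genes, 6 were lower by more than 2-fold in csMed1-/- heart, 2 were lower by less than that, 2 were higher by less than 2-fold, and 0 were higher by more. Pde1c stood apart, with an FPKM 20.9-fold lower, and the others past 2-fold were Pde7a, Pde4d, Pde4a, Pde4b and Pde3a. All 3 PDE4 genes of the list were among them. With 1 FPKM added to both values the count was 3, since Pde3a, Pde4b and Pde7a then lay within 2-fold. Pde2a, the most abundant, and the scarce Pde5a were lower by less than 2-fold, and Pde1a and the scarce Pde3b were higher by less than 2-fold.

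The background for such a count is broad. Genes were kept when both values were above 0 and the higher one was at least 1 FPKM, which left 10489 genes. Of these, 18.0% were lower and 13.6% were higher by more than 2-fold, 31.5% in all, with a median log2 ratio of -0.07. Among kept genes between 1 and 10 FPKM in the higher library, where most of the 10 genes lie, 19.8% were lower by more than 2-fold, and between 10 and 100 FPKM it was 15.6%. Pde3b and Pde5a were not kept, and Pde1c, Pde4d and Pde7a reached 1 FPKM in the control library only. Without the filter the median log2 ratio of the 10 genes was -1.17, beside -0.07 over 15930 genes. The 7 kept genes of the comparison list had a median of -0.18. Because the 10 genes were chosen with earlier results known, their distance from the background cannot be read as a test. The variation between pools of the same genotype is unknown, so these differences could not be set against it.

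**Figure D1:**
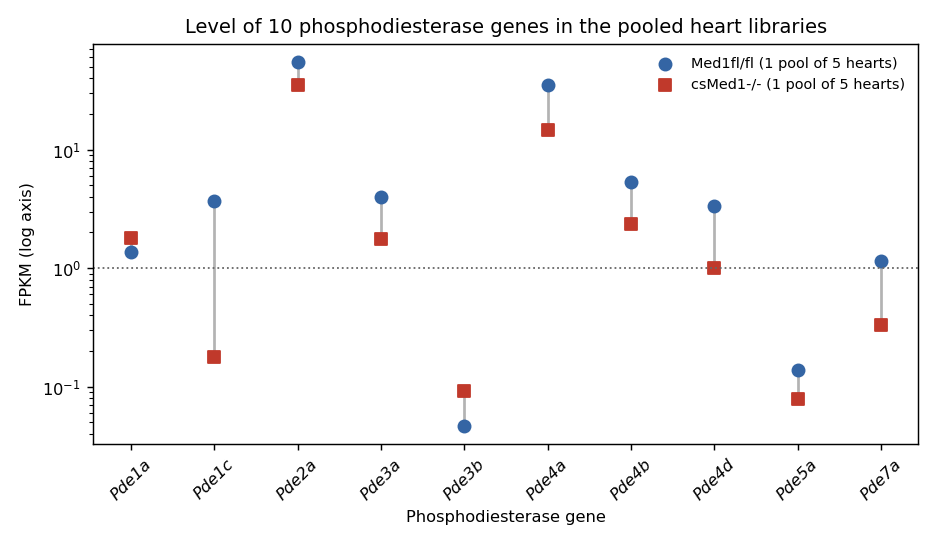
FPKM (log axis) of each of the 10 phosphodiesterase genes in the Med1fl/fl library (circles) and the csMed1-/- library (squares), each 1 pool of 5 hearts, with a grey line joining the pair and a dotted line at 1 FPKM. The pair for Pde1c is the farthest apart (3.72 and 0.178 FPKM), and Pde1a and Pde3b are the pairs in which the csMed1-/- value is the higher.

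The targeted gene was checked first. Med1 had 3.38 FPKM in Med1fl/fl and 0.412 FPKM in csMed1-/- hearts, a ratio of 0.122, in the direction of its label. Steps among values of at most 0.15 FPKM put the depth of the csMed1-/- library at about 1.39 times that of the other. This holds only if mapped fragments were the only scaling. The estimate is the most frequent ratio, shared within a log2 ratio of 0.005 by only 43 of 2408 rows, so it is rough. Read totals are not given in the sources used here, so the counting error of single values is unknown, and it weighs most on Pde3b and Pde5a. Of the cardiomyocyte markers Myl2, a ventricular myosin light chain, had the highest single value, with 20467 FPKM in Med1fl/fl and 6571 FPKM in csMed1-/- hearts. In csMed1-/- hearts Myl3, another ventricular light chain, was above it at 10278 FPKM.

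The PDE1 genes showed the widest spread. PDE1C is the calcium- and calmodulin-activated enzyme of cardiomyocytes that hydrolyses both nucleotides. Pde1c (minus strand of chromosome 6, 56069804 to 56569103 in GRCm38, with 14 annotated transcripts) had 3.72 FPKM in Med1fl/fl and 0.178 FPKM in csMed1-/- hearts, a ratio of 0.0478 and a log2 ratio of -4.39. Only 0.496% of the kept genes had a ratio as low or lower. Because the csMed1-/- value is small, the log2 ratio depends on how low values are treated, and adding 1 FPKM to both values brought it to -2.0. Pde1a (minus strand of chromosome 2, 79834453 to 80129458), whose product is known from vascular smooth muscle and fibroblasts, had 1.38 FPKM in Med1fl/fl and 1.78 FPKM in csMed1-/- hearts, a log2 ratio of 0.37. Pde1b, outside the list of 10, went the other way from Pde1c and past 2-fold, with 1.13 and 2.67 FPKM and a log2 ratio of 1.24.

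The order of the PDE1 genes was therefore inverted between the libraries. In control heart Pde1c was at 2.70 times the level of Pde1a and 3.30 times that of Pde1b. In csMed1-/- heart Pde1c was at 0.0996 times the level of Pde1a and 0.0667 times that of Pde1b. The 3 genes together had 6.23 FPKM in Med1fl/fl and 4.63 FPKM in csMed1-/- hearts, a ratio of 0.743, so the sum of PDE1 mRNA differed far less than its make-up.

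The study measured Pde1c also by qPCR, and its primer pair shows which transcripts that assay covers. Both primers match 10 of the 14 annotated transcripts of Pde1c without a mismatch, with a product of 181 bases, and in 9 of these 10 both lie in coding sequence. The forward primer crosses an exon junction, with its last 13 bases in the downstream exon (capitals), and the reverse primer lies in the next exon (56139420 to 56139439).
Pde1c forward: tagacagGGTGACAGAGAAG
Pde1c reverse: ctgggagctttcgtcaatta

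The files give 1 value per gene and do not tell transcripts or start sites apart. RefSeq places the start of Pde1c at 3 positions, and the promoters (250 bases before to 50 bases after the start, build GRCm38.p6) are shown because this gene had the lowest ratio of the 10. Med1 is a coactivator of nuclear receptors, many of which bind the hexamer AGGTCA, and cAMP acts on promoters through the element TGACGTCA, of which TGACG is the core. These letters and CCAAT were searched on both strands and are in capitals. The TGACGTCA element contains TGACG, so their counts overlap.
Pde1c chr6:56362343-56362642: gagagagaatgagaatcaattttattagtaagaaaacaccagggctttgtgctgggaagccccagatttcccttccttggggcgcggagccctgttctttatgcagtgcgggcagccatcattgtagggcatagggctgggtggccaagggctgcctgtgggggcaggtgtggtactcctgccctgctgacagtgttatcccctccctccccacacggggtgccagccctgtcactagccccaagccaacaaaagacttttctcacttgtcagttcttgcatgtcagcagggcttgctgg
Pde1c chr6:56362761-56363060: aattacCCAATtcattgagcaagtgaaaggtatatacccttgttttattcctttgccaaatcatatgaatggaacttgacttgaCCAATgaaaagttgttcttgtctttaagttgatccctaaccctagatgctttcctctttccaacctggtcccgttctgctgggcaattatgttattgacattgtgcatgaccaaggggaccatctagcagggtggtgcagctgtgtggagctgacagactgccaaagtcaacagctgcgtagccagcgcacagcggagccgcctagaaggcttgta
Pde1c chr6:56369585-56369884: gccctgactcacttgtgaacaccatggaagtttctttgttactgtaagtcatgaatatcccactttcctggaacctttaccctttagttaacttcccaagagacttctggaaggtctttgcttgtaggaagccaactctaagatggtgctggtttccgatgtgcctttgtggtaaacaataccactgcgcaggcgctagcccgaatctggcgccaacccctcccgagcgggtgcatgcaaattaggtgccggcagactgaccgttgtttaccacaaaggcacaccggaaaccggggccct
None of the 3 Pde1c promoters holds AGGTCA or TGACG, and the second holds 2 copies of CCAAT. In GENCODE the gene reaches 56569103, upstream of all 3 windows, and that end was not searched. The hexamer AGGTCA was found in a promoter of Pde1a, which was not lower, and in one of Pde4b, which was lower by more than 2-fold.
Pde1a chr2:80128922-80129221: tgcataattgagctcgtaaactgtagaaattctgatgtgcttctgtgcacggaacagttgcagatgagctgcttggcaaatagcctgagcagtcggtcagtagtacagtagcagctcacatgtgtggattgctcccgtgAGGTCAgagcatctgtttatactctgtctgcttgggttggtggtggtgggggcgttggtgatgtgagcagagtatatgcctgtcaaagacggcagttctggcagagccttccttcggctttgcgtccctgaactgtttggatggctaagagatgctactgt
Pde4b chr4:102587308-102587607: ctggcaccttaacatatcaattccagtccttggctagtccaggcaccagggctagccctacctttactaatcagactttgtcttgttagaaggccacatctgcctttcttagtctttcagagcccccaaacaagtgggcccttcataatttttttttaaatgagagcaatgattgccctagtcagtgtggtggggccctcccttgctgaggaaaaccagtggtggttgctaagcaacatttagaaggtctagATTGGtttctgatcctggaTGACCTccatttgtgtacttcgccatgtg
The table of promoters matched 7 of the 10 genes with 21 promoters, and none for Pde3a, Pde3b and Pde7a. Some windows of Pde2a overlap each other, so the promoters are not all separate. Of these, 2 (9.52%) hold AGGTCA, against 16.3% of 32851 promoters of the same length in the genome. For TGACG it was 4 of 21 (19.0%) against 20.8%, for TGACGTCA 0 of 21 against 1.79%, and for CCAAT 7 of 21 (33.3%) against 37.4%. A match of letters is a description of these windows and not a binding site.

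The PDE4 genes encode the cAMP-specific enzymes that form complexes with β-adrenergic receptors, the ryanodine receptor and other targets of PKA. Pde4a (chromosome 9, 21165714 to 21213248) was the most abundant of them, with 34.9 FPKM in Med1fl/fl and 14.6 FPKM in csMed1-/- hearts, a ratio of 0.418 and a log2 ratio of -1.26. Pde4b (chromosome 4, 102087543 to 102607259), whose product controls the L-type calcium current, had 5.34 and 2.35 FPKM, a log2 ratio of -1.18, or -0.92 with 1 FPKM added to both. Pde4d (chromosome 13, 108449948 to 109953461), whose product is part of the ryanodine receptor complex, had 3.33 and 0.996 FPKM, a log2 ratio of -1.74. Pde4c, outside the list, had 4.0 and 1.99 FPKM, a log2 ratio of -1.0 that lay just past 2-fold.

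The ratios of the PDE4 genes thus ran from 0.299 for Pde4d to 0.499 for Pde4c. Their order of level, Pde4a, Pde4b, Pde4c and Pde4d, was the same in both libraries. Pde4a was at 6.53 times the level of Pde4b in Med1fl/fl and 6.21 times in csMed1-/- hearts, and at 10.5 and 14.6 times the level of Pde4d. The sum of the 4 genes was 47.5 FPKM in Med1fl/fl and 19.9 FPKM in csMed1-/- hearts, a ratio of 0.419.

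PDE2A is a dual enzyme that cGMP stimulates through its GAF domains, so that it lowers cAMP when cGMP rises. Pde2a (chromosome 7, 101421691 to 101512827) had the highest level of the 10 genes in both libraries, with 54.6 FPKM in Med1fl/fl and 35.0 FPKM in csMed1-/- hearts, a ratio of 0.640 and a log2 ratio of -0.64. Of the kept genes 27.5% had a ratio as low or lower, so its change lay well inside the bulk of the distribution. It was at 1.57 times the level of Pde4a in Med1fl/fl and 2.4 times in csMed1-/- hearts.

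PDE3 enzymes are the targets of the inotrope milrinone, and PDE3A controls the cAMP pool at phospholamban and the calcium pump of the sarcoplasmic reticulum. Pde3a (chromosome 6, 141249269 to 141507448) had 3.95 FPKM in Med1fl/fl and 1.78 FPKM in csMed1-/- hearts, a ratio of 0.450 and a log2 ratio of -1.15. With 1 FPKM added to both values its log2 ratio was -0.83, within 2-fold. Pde3b (chromosome 7, 114415281 to 114539251), best known from adipocytes and hepatocytes, was near the bottom of the range, with 0.0469 and 0.0928 FPKM. Its ratio of 1.98 rests on very low values, and with 1 FPKM added to both its log2 ratio was 0.06. Pde3a was at 84.1 times the level of Pde3b in Med1fl/fl and 19.2 times in csMed1-/- hearts, so it made up nearly all PDE3 mRNA in both.

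Pde7a (minus strand of chromosome 3, 19223108 to 19311322) encodes a cAMP-specific enzyme that is insensitive to the PDE4 inhibitor rolipram. It had 1.15 FPKM in Med1fl/fl and 0.332 FPKM in csMed1-/- hearts, a ratio of 0.288 and a log2 ratio of -1.80, the lowest of the 10 after Pde1c. Adding 1 FPKM to both values brought this to -0.69. Pde7b, outside the list, had 1.24 and 0.544 FPKM, a log2 ratio of -1.19. Both PDE7 genes were therefore lower by more than 2-fold, at low levels.

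PDE5A is the cGMP-specific enzyme that sildenafil inhibits, abundant in vascular smooth muscle. Pde5a (chromosome 3, 122728947 to 122859374) had 0.138 FPKM in Med1fl/fl and 0.0789 FPKM in csMed1-/- hearts, a ratio of 0.570. Both values are under the level at which genes were kept, so the mRNA was scarce in both libraries.

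Exons of Pde3a, Pde5a and Pde7a overlap exons of a gene on the opposite strand, and exons of Pde2a overlap a gene on the same strand. The libraries were directional, but whether the counting used the strand is not stated, so reads of overlapping genes may be mixed. The partner of Pde5a, 4930447N08Rik, was listed at 0 in both libraries, and the other partners were not analysed here.

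**Figure D2:**
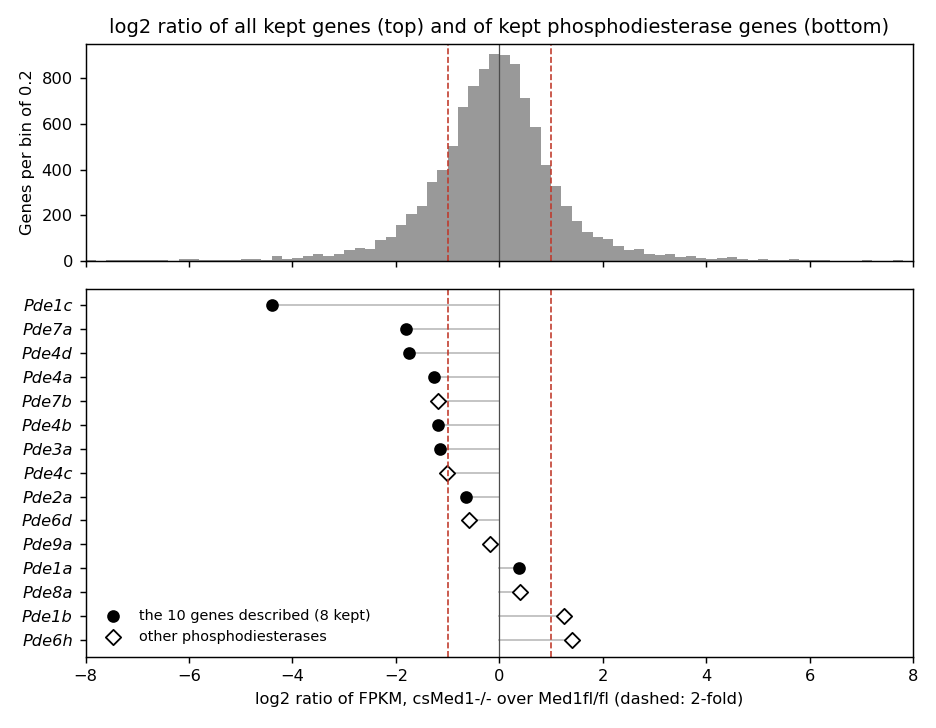
Top, number of kept genes in bins of 0.2 of the log2 ratio of csMed1-/- to Med1fl/fl FPKM, with 1 gene outside the axis; bottom, the log2 ratio of each kept phosphodiesterase gene, with filled circles for genes of the list of 10 and open diamonds for the others, and dashed lines at 2-fold. Pde1c lies in the far left tail at -4.39, Pde7a, Pde4d, Pde4a, Pde4b and Pde3a lie between -1.80 and -1.15, and Pde1b and Pde6h lie past 2-fold on the right.

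Of the 14 other genes of the superfamily 7 were kept, of which 2 were lower by more than 2-fold (Pde4c and Pde7b), 2 were higher (Pde1b and Pde6h) and 3 were within 2-fold. Their median log2 ratio was -0.18. With ratios centred on the median of the kept genes, Pde4c moved inside 2-fold, which left 1 lower and 2 higher. At that setting 16.6% of all kept genes were lower and 15.0% higher. Pde8a, a cAMP-specific enzyme with high affinity, had 3.13 FPKM in Med1fl/fl and 4.10 FPKM in csMed1-/- hearts, a log2 ratio of 0.39. Pde9a, a cGMP-specific enzyme that degrades cGMP raised by natriuretic peptides, had 2.07 and 1.82 FPKM, a log2 ratio of -0.18. Pde6h encodes an inhibitory subunit of the photoreceptor enzyme and had 0.454 and 1.20 FPKM, a log2 ratio of 1.40. Pde6d, which encodes a carrier of prenylated proteins and no catalytic subunit, had 39.6 and 26.4 FPKM, a log2 ratio of -0.59.

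FPKM is scaled to transcript length, so the levels of different genes can be added within a library. Over the 21 catalytic genes of both lists the sum was 121 FPKM in Med1fl/fl and 68.7 FPKM in csMed1-/- hearts, a ratio of 0.567. Pde2a and Pde4a together made up 74.0% of it in control and 72.1% in csMed1-/- heart. Within this sum the share of the PDE4 genes was 39.3% in Med1fl/fl and 29.0% in csMed1-/- hearts, and that of Pde2a was 45.2% and 50.9%. The 2 PDE8 genes had 3.12% and 6.32%, and Pde1c had 3.07% and 0.259%.

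Sorted by substrate, the genes of cAMP-specific enzymes had 53.7 FPKM in Med1fl/fl and 25.1 FPKM in csMed1-/- hearts, a ratio of 0.468. Those of enzymes for both nucleotides had 65.1 and 41.6 FPKM, a ratio of 0.640. Those of cGMP-specific enzymes had 2.22 and 1.90 FPKM, a ratio of 0.859, nearly all of it Pde9a. The cAMP-specific share was 44.4% in Med1fl/fl and 36.6% in csMed1-/- hearts. These shares are of mRNA in 1 library per genotype, and enzyme activity was not measured in these files.

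**Figure D3:**
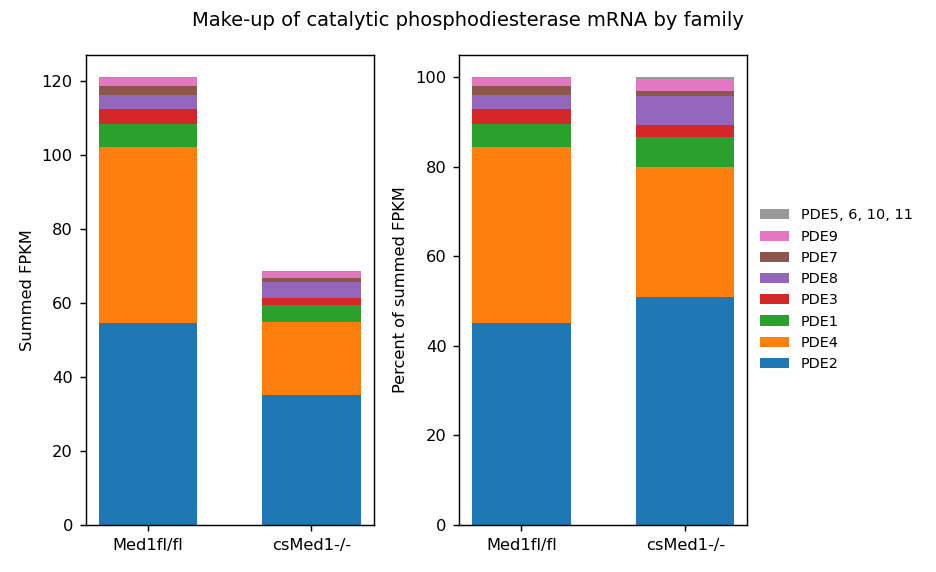
Summed FPKM (left) and percent of the sum (right) of 21 catalytic phosphodiesterase genes by family in the Med1fl/fl and csMed1-/- libraries, 1 pool each. The total is 121 FPKM against 68.7 FPKM, and within it the PDE4 share goes from 39.3% to 29.0% while PDE2 holds 45.2% and 50.9%.

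The other genes that make, bind and act on cyclic nucleotides were taken from lists of 62 genes, of which 46 were kept. In these lists 15 genes were lower and 0 were higher by more than 2-fold, against 18.0% and 13.6% of all kept genes, with a median log2 ratio of -0.61 against -0.07. The same shares are the background of each list below. When each library was scaled to its 75th percentile, 15 were lower and 2 higher, against 16.9% and 14.5% of all kept genes. Of 6 kept adenylyl cyclases, which make cAMP, 2 were lower by more than 2-fold. Adcy6, a main isoform of the heart, had 71.7 FPKM in Med1fl/fl and 30.8 FPKM in csMed1-/- hearts (log2 ratio -1.22), and Adcy9 had 9.64 and 2.84 FPKM (-1.76). Adcy5, the other main isoform of the heart, had 53.5 and 54.6 FPKM (0.03). All 4 kept guanylyl cyclase genes were within 2-fold, with log2 ratios from -0.84 to 0.56.

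The effectors of cAMP were mostly within 2-fold. Of 10 kept genes 9 were, among them all the kept PKA subunits, and the exception was Rapgef4, which encodes the exchange factor Epac2, with 1.93 FPKM in Med1fl/fl and 0.405 FPKM in csMed1-/- hearts (log2 ratio -2.25). Both genes of the cGMP-dependent protein kinases, Prkg1 and Prkg2, were below 1 FPKM in both libraries and were not kept. Pkia, an inhibitor of PKA, had 5.04 and 2.32 FPKM (-1.12), and the inhibitor gene Pkig had 342 and 199 FPKM (-0.78). The exporters Abcc4 and Abcc5 were within 2-fold, at log2 ratios of -0.67 and 0.79.

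The anchoring list holds proteins that keep PKA and phosphodiesterases at their sites. All 9 of its kept genes had ratios under 1, and 4 were lower by more than 2-fold. The highest log2 ratio of the 9 was -0.02, and 52.5% of all kept genes had a ratio as low or lower. Pde4dip, which encodes myomegalin, a partner of PDE4D, had 286 FPKM in Med1fl/fl and 125 FPKM in csMed1-/- hearts (log2 ratio -1.20). Akap6, which anchors PKA and PDE4D at the nuclear envelope and the sarcoplasmic reticulum, had 3.67 and 1.49 FPKM (-1.30). Akap7, whose product binds phospholamban, had 3.37 and 1.32 FPKM (-1.35), and Akap1, an anchor at mitochondria, had 41.5 and 17.5 FPKM (-1.24).

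Of 10 genes for PKA or PKG substrates of excitation and contraction, 7 were lower by more than 2-fold, with a median log2 ratio of -1.70. Pln, which encodes phospholamban, was the lowest at -3.78 and Ryr2 was next at -3.28. The smallest changes past 2-fold were those of Kcnq1, a potassium channel subunit (-1.14), and Cacnb2, a calcium channel subunit (-1.52). Some of these genes also serve as cardiomyocyte markers.

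**Figure D4:**
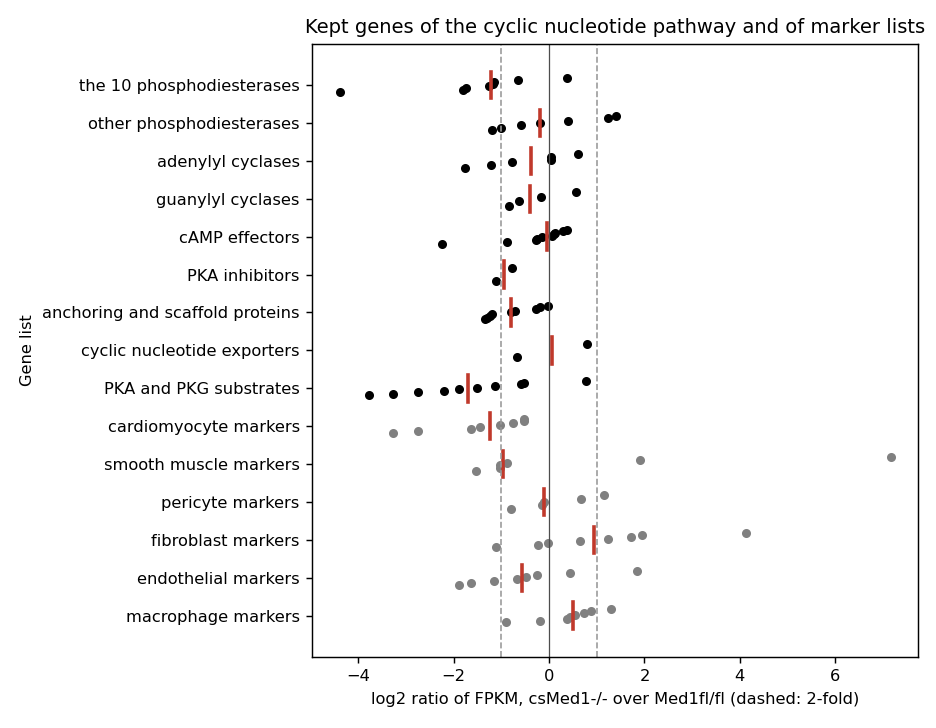
log2 ratio of csMed1-/- to Med1fl/fl FPKM for the kept genes of each list (black, the phosphodiesterases and the cyclic nucleotide pathway; grey, cell type markers), with the median of each list as a red bar and dashed lines at 2-fold. Of the 10 phosphodiesterases the 8 kept are shown, with a median of -1.22. All lists shown have medians below 0 except the cyclic nucleotide exporters (0.06), the macrophage markers (0.49) and the fibroblast markers (0.94).

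Several cell types of the heart express these enzymes, and their markers differed between the libraries too. In bulk RNA, fewer cells of a type and less RNA per cell cannot be told apart. Of 8 kept cardiomyocyte markers all had ratios under 1 and 5 were lower by more than 2-fold, with a median log2 ratio of -1.24. The highest of them was at -0.52, and 32.1% of all kept genes had a ratio as low or lower. The median of the phosphodiesterases was -1.22 over the 8 kept genes and -1.17 over all 10 without the filter. Actc1, cardiac α-actin, was listed at 0 in Med1fl/fl hearts and at 9189 FPKM in csMed1-/- hearts, and was left out of the marker sum. Whether that 0 is a level or arose in the quantification was not tested. The gene of α-myosin heavy chain was also on the marker list but was not analysed, so the sum lacks it too. The markers then summed to 53645 FPKM against 21140 FPKM, with a csMed1-/- to Med1fl/fl ratio of 0.394. The log2 ratios of the single markers ran from -3.28 to -0.52. The 6 phosphodiesterases past 2-fold were picked for low ratios, so a count of them within this range would say little. Pde1c lay below the range at -4.39, a ratio that rests on a small csMed1-/- value. With 1 FPKM added to both values Pde1c was at -2.0. Ryr2, the lowest of the markers, had 84.6 and 8.70 FPKM, so the same addition changes its -3.28 little. At that setting Pde1c therefore lay inside the range of the markers.

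Markers of the other cell types moved in both directions. The smooth muscle list had a median of -0.96 with a summed FPKM of 732 in control and 1069 in csMed1-/- heart, the second carried by Cnn1 (4.32 and 622 FPKM). The pericyte list had a median of -0.11 and a summed FPKM of 139 and 138, with Pdgfrb its most abundant gene (49.6 and 45.9 FPKM). The fibroblast list had a median of 0.94 and a sum of 503 and 1193 FPKM, led by Col1a1 (129 and 502 FPKM). Of its 8 genes 4 were higher by more than 2-fold and 3 had ratios under 1, of which Lum was lower by more than 2-fold at -1.11. The endothelial list had a median of -0.58 and a sum of 523 and 458 FPKM, with Egfl7 at 103 and 140 FPKM. Most of that list went the other way from Egfl7, with ratios under 1 for 6 of 8 genes, and Kdr (-1.64), Tek (-1.90) and Emcn (-1.15) were lower by more than 2-fold. The macrophage list had a median of 0.49 and a sum of 298 and 419 FPKM, with C1qb at 78.2 and 129 FPKM.

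The remaining marker lists were sparse. Of the erythroid list only Alas2 was analysed, with 35.8 FPKM in Med1fl/fl and 82.1 FPKM in csMed1-/- hearts. The lymphocyte markers summed to 1.14 and 0.979 FPKM, with Cd79a the highest at 0.707 and 0.523 FPKM. Of the adipocyte markers all 4 were listed at 0 in control, and Adipoq was the highest in csMed1-/- heart at 0.0101 FPKM. The part of cell composition in the phosphodiesterase values was not tested.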

How the data were processed

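Heart RNA of 5 Med1fl/fl and 5 csMed1-/- mice aged 23 days was pooled by genotype, enriched for polyadenylated RNA and made into directional libraries read as single ends, 1 library per genotype. In their methods the authors name TopHat 2.0.8b for alignment to mm10, Cufflinks 2.1.1 with a UCSC annotation for expression and cuffdiff for differential expression. The submitters' processing notes also name STAR 2.4.0h, Bowtie2 and DESeq2, without a role. Which of these tools, and which library scaling, gave the deposited FPKM values is not stated.

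The deposited values were used as they are, and the rows of the 412 symbols that stand on several of the 23424 rows were summed. A change was counted past 2-fold, among genes with both values above 0 and the higher one at least 1 FPKM. No test was run, since there is 1 library per genotype. In the alternatives a single ratio was called weaker or stronger when it crossed 2-fold, and a count or share moved when it changed by more than 1.5 times.

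The 10 genes and all lists were chosen with earlier results of these data known. Named in the text are the 10 genes, other phosphodiesterases that reach 1 FPKM in either library, Med1, the 2 lowest and 2 highest ratios past 2-fold of each pathway list, every kept gene of lists of at most 3 genes except those of 1 list, and the gene with the highest single value of each marker list. Genes outside this rule (Actc1, Prkg1, Prkg2, 4930447N08Rik, Myl3, Adcy5, Lum, Kdr, Tek, Emcn) were added after the values were seen. The values of that 1 list are not reported here, and its genes are counted in the totals over the pathway lists.

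Positions came from GENCODE M21 (GRCm38, the build of mm10), and promoters from RefSeq (GRCm38.p6), both joined by symbol. Python 3.11.15, numpy 2.4.6, pandas 2.3.3 and matplotlib 3.10.9 were used, and the computation was tested on simulated data.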

Additional observations from a re-analysis of the deposited data

How the results depend on the processing

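No paired analysis was possible because each genotype has 1 library, and for the same reason no library could be left out. The count of 6 phosphodiesterases lower by more than 2-fold was 3 of 8 with a pseudocount of 1 FPKM, 3 of 5 among genes at 1 FPKM or more in both libraries, 1 of 2 among genes at 10 FPKM or more in either, and 1 of 8 at 4-fold. The shares of all genes lower at these settings were 12.3%, 14.7%, 16.3% and 5.14%. Their median log2 ratio was -0.88 with a pseudocount of 1 FPKM and -0.95 with the 10 FPKM filter. The 2 other phosphodiesterases that were lower became 1 with a pseudocount of 0.1 FPKM, centred ratios, 75th percentile scaling or 1 FPKM in both. They became 0 with a pseudocount of 1 FPKM, the 10 FPKM filter or a 4-fold threshold. With every gene above 0 in both they became 5 of 12, where 20.0% of all genes were lower. Of all genes, 17.4% were lower with a pseudocount of 0.1 FPKM, 16.6% with centring and 16.9% with 75th percentile scaling. The 2 that were higher became 1 with 1 FPKM in both libraries, where 11.3% of all genes were higher. They became 0 with a pseudocount of 1 FPKM, the 10 FPKM filter or a 4-fold threshold, against 10.3%, 15.1% and 4.32% of all genes. In the pathway lists the 15 lower genes became 24 at 1.5-fold, where 29.7% of all genes were lower, and 5 at 4-fold. The 0 higher genes became 2 with centred ratios or 75th percentile scaling, against 15.0% and 14.5% of all genes. They became 1 with every gene above 0 in both, against 15.7%, and 5 at 1.5-fold, against 23.7%. Over 60 repeats of the single ratios of the 10 genes, 55 kept their side of 2-fold and 0 reversed. The repeats with the highest row of each symbol could not differ, since each of the 10 genes stands on a single row. A pseudocount cannot turn a ratio around, and each scaling shifts all log2 ratios by the same amount, so the lack of reversals says little. The 3 that moved inside were Pde3a, Pde4b and Pde7a with a pseudocount of 1 FPKM, and the 2 that moved outside were Pde3b with centring and 75th percentile scaling. The share of the PDE4 genes was 40.1% and 31.4% over the 10 genes alone.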
